A study of Caenorhabditis elegans with 8 samples.

Results

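The effect of losing daf-16 on the transcriptome of whole young adult Caenorhabditis elegans was measured over both bacterial foods of the study together. The 4 libraries of the daf-16 mutant were set against the 4 libraries of the wild-type strain N2, with food as a covariate. Genes entered by 1 rule, a value above 0 in all 8 libraries in FPKM, the number of fragments relative to transcript length and library size. This was met by 16248 of the 41560 rows of the deposited table. Of the remaining rows, 20764 stood at 0 in every library and 4548 were above 0 in some libraries but not all.

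The mutant worms carried daf-16(mgDf50), an allele known as a deletion that removes most of the coding sequence, in every cell of the body and throughout life. The wild-type worms were the Bristol strain N2 with no allele named. Within each genotype, 2 libraries came from worms fed Escherichia coli BW25113 and 2 from worms fed the hns mutant of BW25113, which lacks the DNA-binding protein H-NS. All worms grew on NGM plates at 20 °C, and RNA came from the whole body. Each genotype was represented by 1 strain, so a difference in strain background cannot be told apart from the allele.

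DAF-16 is the only FOXO transcription factor of C. elegans. Insulin-like peptides bind the receptor DAF-2, which acts through a phosphoinositide 3-kinase and the AKT kinases to phosphorylate DAF-16 and keep it in the cytoplasm. When the signal falls, DAF-16 enters the nucleus and raises genes for stress resistance, antimicrobial defence and metabolism, known as class I genes. Class II genes move the opposite way in such animals. In well-fed wild-type adults the insulin-like signal is on, and DAF-16 is mostly cytoplasmic.

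The summed FPKM of a library lay between 2128460 and 2508481, and between 18137 and 18647 rows were above 0. Replicates of a group correlated with r between 0.992 and 0.995 across genes. The second principal component, with 23.1% of the variance, separated the genotypes, which lay between 9.4 and 18.7 in daf-16 libraries and between −23.4 and −2.16 in N2 libraries. Here and below, 4 values of a genotype are given as replicates 1 and 2 on BW25113 food and then replicates 1 and 2 on hns food. The share of the FPKM sum held by ribosomal RNA genes was 2.25%, 1.33%, 3.89% and 2.3% in daf-16 libraries, against 1.01%, 0.983%, 0.815% and 0.856% in N2 libraries, without overlap. Almost all of this share was that of rrn-2.1, the only ribosomal RNA gene tested, which was not called. Without counts of reads, the depth under each FPKM value is unknown.

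The daf-16 transcript itself fell, with the smallest adjusted p of all genes. It measured 19.2, 18.3, 17.7 and 15.8 FPKM in daf-16 libraries, against 77.1, 77.4, 75.6 and 69.9 FPKM in N2 libraries. The genotypes were far apart on either food, and every library went with its label. The mean was 17.8 ± 1.44 FPKM in daf-16 worms and 75 ± 3.5 FPKM in N2 worms (SD, n = 4 each), a log2 change of −2.02 ± 0.06 (SE; limma, adjusted p = 4.99e-06). Which stretch of the gene the remaining FPKM came from is not given in a table of 1 value per gene.

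A small share of genes passed the threshold between daf-16 and N2 worms, most of them with modest changes. By limma's test, with p-values two-sided and adjusted by the Benjamini-Hochberg method over all 16248 genes, 168 genes (1.03%) passed an adjusted p of 0.05. Of these, 111 (0.683%) rose and 57 (0.351%) fell in daf-16 worms. The unadjusted limma p was under 0.05 for 2211 of the 16248 genes. With 4 libraries a side, a gene short of the threshold is not shown to be unchanged. The median size of the change was 0.69 on the log2(FPKM + 1) scale, on which low genes appear to change less than they do, and 40 of the 168 changed by more than 1. The median over all genes tested was 0.000468. The libraries of the genotypes did not overlap for 146 of the 168, beside 1001 (6.16%) of all genes tested, of which 654 (4.03%) were above and 347 (2.14%) below N2 throughout. Here same-numbered libraries deviated together, and a fit with the replicate number as a block called 451 genes (2.78%), 287 higher and 164 lower, among them all 168. With the block set within each food, 239 genes were called, among them 138 of the 168.

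Fits were repeated with each library left out in turn. Each omission left 1 library in its group and fewer residual degrees of freedom, and the part of this in the counts was not tested. The number of calls changed with the library left out. It was 87 without replicate 1 of daf-16 on BW25113, 60 without replicate 1 of daf-16 on hns and 90 without replicate 2 of daf-16 on hns. Without an N2 library it was 67 (replicate 1 on BW25113), 75 (replicate 2 on BW25113) and 71 (replicate 1 on hns). Leaving out replicate 2 of daf-16 on BW25113 gave 175 and leaving out replicate 2 of N2 on hns gave 131. Passing the threshold under every one of the 8 omissions were 43 genes, 28 higher and 15 lower. They included daf-16, lys-7, pud-3, pud-4, clec-222, cex-1, comt-4, F35E12.5 and hrg-3.

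**Figure D1:**
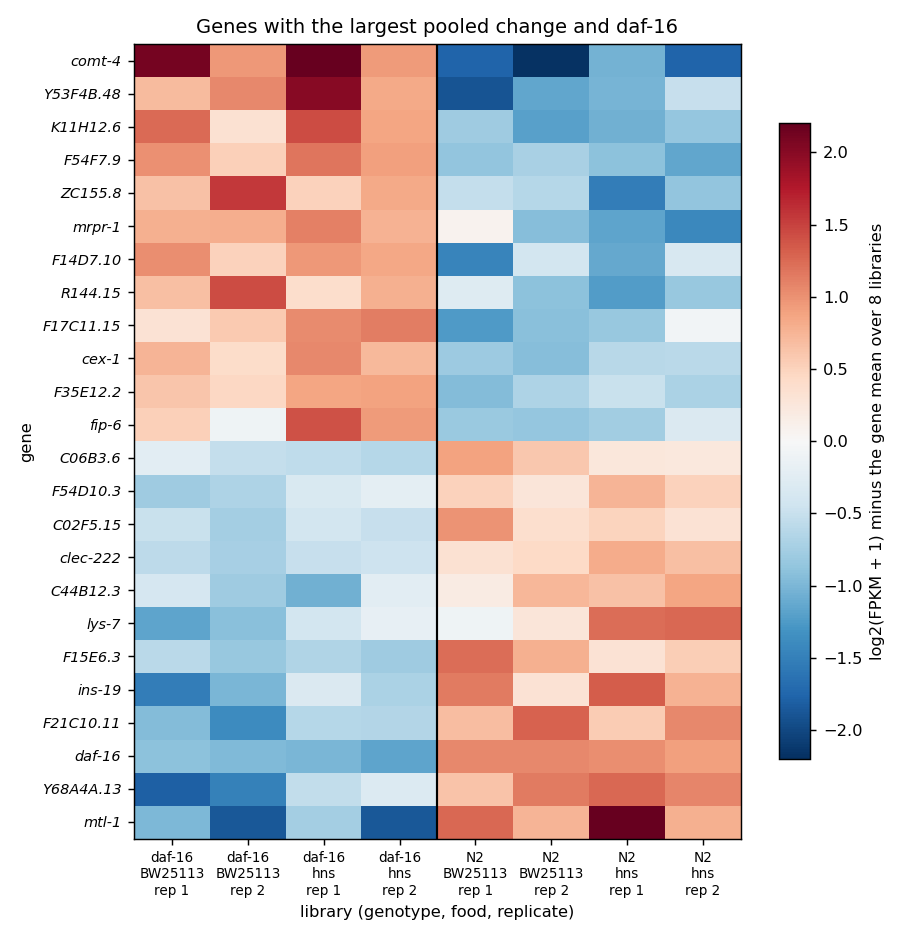
Each row is a gene and each column a library, coloured by log2(FPKM + 1) minus the gene's mean over the 8 libraries, with the 4 daf-16 libraries left of the 4 N2 libraries and colours saturating at the ends of the scale. Rows are the 12 genes highest and the 12 lowest in daf-16 among called genes whose genotypes did not overlap and whose higher genotype averaged at least 5 FPKM; in every row the 4 daf-16 libraries lie on 1 side of the 4 N2 libraries.

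Genes known to be activated by DAF-16 leaned toward lower levels in the mutant. Of 48 class I genes tested, 7 fell and 1 rose (16.7% called, against 1.03% of all genes), and 34 of 48 had a change below 0. Their median log2 change was −0.17. This list, like the others here, was drawn up with earlier results of these data known, so its share of calls is a description and not a test. With the replicate block 12 fell and 2 rose, and with the block within food 8 fell and 1 rose. Without replicate 1 of daf-16 on hns, 3 fell and 0 rose, and without replicate 1 of N2 on BW25113, likewise 3 and 0. Leaving out replicate 2 of daf-16 on hns gave 4 lower and 1 higher, and leaving out replicate 2 of N2 on BW25113 gave 3 and 1. The summed FPKM of the list ran from 3563 to 4829 in daf-16 libraries and from 5391 to 7404 in N2 libraries. These sums include the abundant called genes pud-3, pud-4, sip-1 and spp-1.

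The metallothionein gene mtl-1, which encodes a small metal-binding protein, had the largest decrease. It measured 8.54, 4.15, 10.2 and 4.201 FPKM in daf-16 libraries, against 44.1, 30.6, 120 and 31.3 FPKM in N2 libraries. The genotypes did not overlap, and replicate 1 on hns food stood far above the other N2 libraries. The mean in N2 was 8.36-fold the mean in daf-16, and the log2 change was −2.73 ± 0.44 (SE; limma, adjusted p = 0.032). This call held only without replicate 1 or replicate 2 of N2 on hns; each of the other 6 omissions ended it, with adjusted p up to 0.108.

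The lysozyme gene lys-7, part of intestinal defence against bacteria, fell on both foods. Its levels were 33.0, 39.2, 56.1 and 66.3 FPKM in daf-16 libraries, against 69.8, 90.1, 178 and 181 FPKM in N2 libraries. The hns food libraries lay above the BW25113 libraries in both genotypes, and the highest daf-16 library stayed below the lowest N2 library. The log2 change was −1.33 ± 0.12 (SE; limma, adjusted p = 0.00395).

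The neighbouring genes pud-3 and pud-4, named as proteins upregulated in daf-2 mutants, fell together. In daf-16 libraries pud-3 measured 256, 239, 832 and 818 FPKM, against 621, 896, 1759 and 1493 FPKM in N2 libraries. Genotypes overlapped across foods but not within a food. The log2 change was −1.28 ± 0.15 for pud-3 (SE; limma, adjusted p = 0.0125) and −1.35 ± 0.17 for pud-4 (adjusted p = 0.0126), and as paralogs they may share reads, so the split between them is uncertain. For pud-4 the levels were 152, 125, 534 and 431 FPKM in daf-16 libraries, against 389, 493, 1164 and 846 FPKM in N2 libraries.

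Among small heat shock proteins, chaperones that hold unfolded proteins, 2 of 13 tested fell and 0 rose (15.4% called, against 1.03% of all genes). The levels of sip-1 were 1102, 1156, 1127 and 1163 FPKM in daf-16 libraries, against 1653, 1719, 1430 and 1572 FPKM in N2 libraries. This abundant transcript was nearly constant within the mutant, with a log2 change of −0.48 ± 0.06 (SE; limma, adjusted p = 0.0144). It lost its call without replicate 1 of daf-16 on hns and without either N2 library on BW25113 (adjusted p up to 0.0711). For hsp-12.6 the values were 2.92, 3.06, 2.15 and 1.13 FPKM in daf-16 libraries, against 4.96, 6.16, 4.03 and 4.38 FPKM in N2 libraries, with a log2 change of −0.86 ± 0.15 (adjusted p = 0.0451). Each of the 8 omissions ended the hsp-12.6 call, with adjusted p up to 0.115, and so did the block within food (adjusted p = 0.0549). The list's median was 0.18, above 0, and the replicate block added hsp-17 and hsp-43 as higher.

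The saposin-like genes spp-1 and spp-2, whose family includes pore-forming antimicrobial proteins, also fell. They averaged 534 ± 18.4 and 157 ± 18.9 FPKM in daf-16 worms, against 696 ± 32 and 297 ± 52.1 FPKM in N2 worms (SD, n = 4 each). The log2 changes were −0.38 ± 0.05 (SE; limma, adjusted p = 0.0144) and −0.91 ± 0.14 (adjusted p = 0.0239). Leaving out replicate 1 or 2 of daf-16 on hns, or replicate 1 or 2 of N2 on BW25113, ended both calls, as did replicate 1 of N2 on hns for spp-1 and replicate 1 of daf-16 on BW25113 for spp-2 (adjusted p up to 0.0843).

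The exception among called class I genes was gpdh-1, a glycerol-3-phosphate dehydrogenase known for glycerol production under osmotic stress. It measured 9.02, 7.95, 12.7 and 12.4 FPKM in daf-16 libraries, against 4.37, 5.30, 6.49 and 6.34 FPKM in N2 libraries. It rose by 0.79 ± 0.10 on the log2 scale (SE; limma, adjusted p = 0.0126), a call lost without replicate 1 of daf-16 on hns or replicate 1 of N2 on BW25113 (adjusted p up to 0.063).

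Several of the best-known DAF-16 targets did not pass. The mitochondrial superoxide dismutase gene sod-3 measured 2.06, 1.51, 2.77 and 2.02 FPKM in daf-16 libraries, against 3.56, 4.42, 3.80 and 3.80 FPKM in N2 libraries. All daf-16 values were below all N2 values, with a log2 change of −0.68 ± 0.14 (SE; limma, adjusted p = 0.0677, and 0.0505 with the replicate block). The linker histone gene hil-1 was at 2.76, 1.89, 3.55 and 2.29 FPKM in daf-16 libraries, against 6.52, 4.73, 5.81 and 5.30 FPKM in N2 libraries. Its log2 change of −0.88 ± 0.16 had an adjusted p of 0.051, and of 0.0106 with the replicate block or 0.0287 with the block within food. Both genes were expressed at only a few FPKM in either genotype.

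Other readouts of DAF-16 showed smaller differences or none that the test could separate. The ferritin gene ftn-1 averaged 0.902 FPKM in daf-16 worms and 1.91 FPKM in N2 worms (log2 change −0.66 ± 0.21, adjusted p = 0.21), and the genotypes overlapped. The isocitrate lyase gene icl-1 of the glyoxylate cycle averaged 19.1 FPKM in daf-16 worms and 27.7 FPKM in N2 worms (−0.51 ± 0.12, adjusted p = 0.108). For dod-3, gpd-2, dao-3, the catalase genes ctl-1 and ctl-2, sod-5 and the desaturase gene fat-7, adjusted p lay between 0.41 and 0.931. The heat shock gene hsp-16.2 averaged 3.55 FPKM in daf-16 worms and 2.04 FPKM in N2 worms (0.60 ± 0.16, adjusted p = 0.136). The gene scl-1 was above 0 in 2 libraries only, at no more than 0.0873 FPKM, and was not tested. Of 31 superoxide, catalase and peroxide defence genes, 0 were called in either direction by limma, with or without the block.

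**Figure D2:**
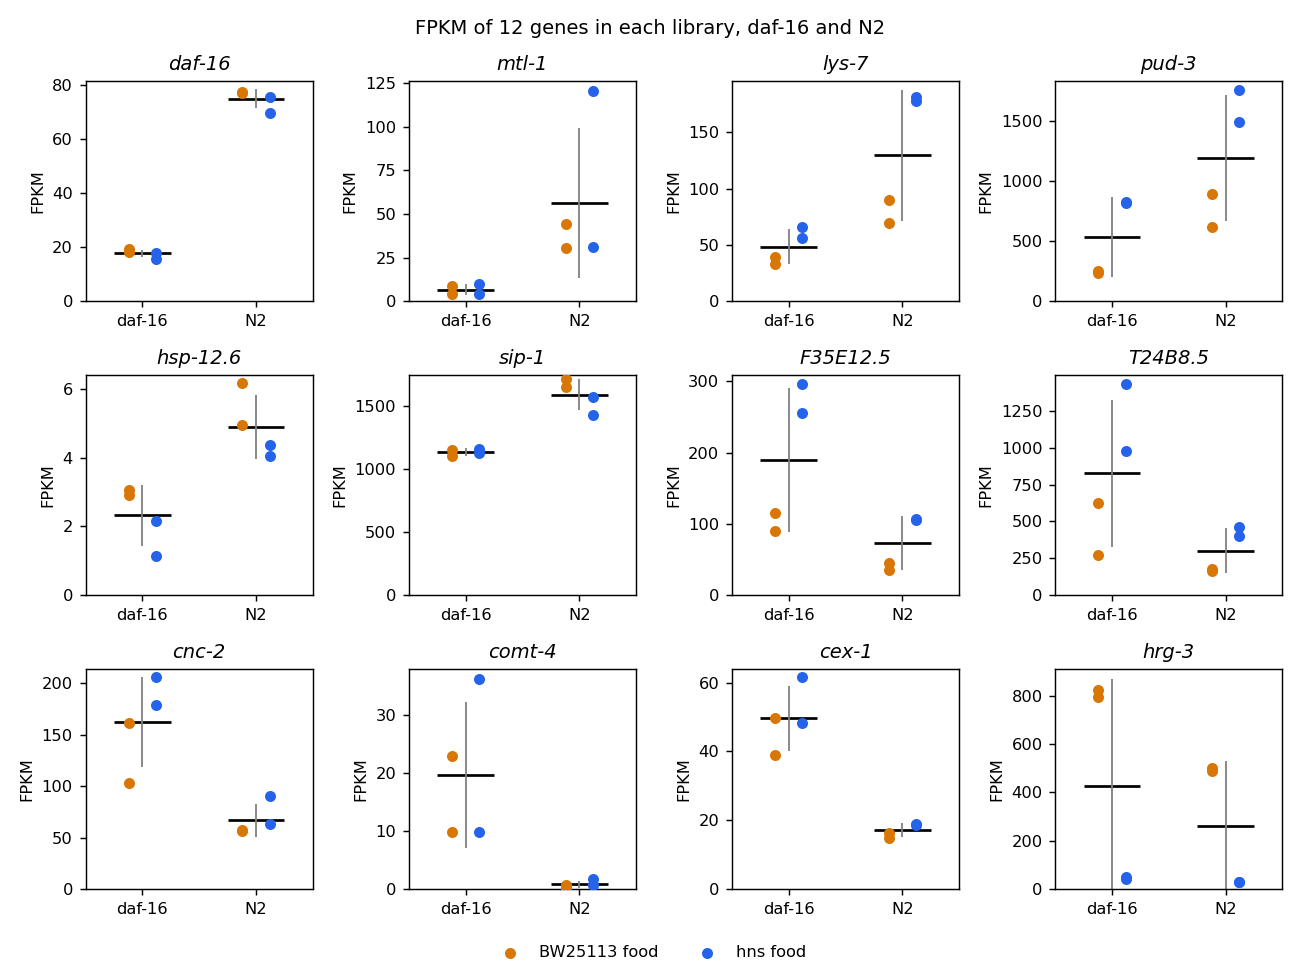
FPKM of 12 genes in each library, with daf-16 left of N2 in each panel, points coloured by food, a black line at the mean and a grey bar of 1 SD (n = 4, drawn only above 0). For daf-16, mtl-1, lys-7, hsp-12.6 and sip-1 all mutant libraries lie below all N2 libraries, while hrg-3 is split first by food and then by genotype within each food.

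Within the insulin-like pathway itself, daf-16 and akt-2 were lower and the receptor was not called. Of 34 genes tested from receptor to FOXO, 2 fell and 0 rose (5.88% called, against 1.03% of all genes). Of the 2, daf-16 is the mutated gene itself, which leaves akt-2 as the only other call. The gene akt-2, a kinase that phosphorylates DAF-16, measured 5.36, 5.53, 5.89 and 5.27 FPKM in daf-16 libraries, against 8.88, 8.56, 10.02 and 8.17 FPKM in N2 libraries. The genotypes did not overlap, and the log2 change was −0.60 ± 0.10 (SE; limma, adjusted p = 0.0315). The call held under 1 of 8 omissions, that of replicate 2 of N2 on hns, with adjusted p up to 0.116 under the others. The receptor gene daf-2 averaged 21.1 FPKM in daf-16 worms and 22.6 FPKM in N2 worms (−0.09 ± 0.07, adjusted p = 0.658). The zinc finger factor gene pqm-1, known to act opposite to DAF-16, averaged 11.7 FPKM in daf-16 worms and 14.3 FPKM in N2 worms (−0.24 ± 0.16, adjusted p = 0.576).

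Of 27 insulin-like peptide genes tested, 1 fell and 0 rose (3.7% called, against 1.03% of all genes). A change below 0 was found in 19 of the 27, with a median of −0.21. On hns food the median was −0.21, while on BW25113 food it was 0.04, so the lean was not seen on both foods. The gene that fell was ins-19. Its levels were 0.934, 1.79, 3.44 and 2.42 FPKM in daf-16 libraries, against 11.2, 5.96, 12.9 and 8.40 FPKM in N2 libraries. No daf-16 library reached the lowest N2 library, and the log2 change was −1.77 ± 0.24 (SE; limma, adjusted p = 0.0159). The call was lost without replicate 2 of daf-16 on hns or replicate 1 of N2 on hns (adjusted p up to 0.0639). The peptide gene ins-7, known to be raised when DAF-16 is inactive, averaged 39.2 FPKM in daf-16 worms and 30.5 FPKM in N2 worms (0.34 ± 0.11, adjusted p = 0.239), with overlapping libraries.

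Genes of the response to infection moved in both directions, with more of them higher in the mutant. Of 58 tested, 8 rose and 3 fell (18.97% called, against 1.03% of all genes), and the median change was 0.23. The summed FPKM of the list overlapped, at 22670 to 26170 in daf-16 libraries and 25430 to 26210 in N2 libraries. The 3 that fell were lys-7, spp-1 and spp-2, of which lys-7 and spp-1 are counted in the class I list as well. Those that rose were F35E12.5, T24B8.5, cnc-2, F08G5.6, C17H12.8, dod-19, lys-1 and lys-2, of which C17H12.8 (0.79 ± 0.10, adjusted p = 0.0125) and the 2 lysozyme genes are named after their values were seen. With the replicate block 12 rose and 3 fell, and with the block within food 10 and 3. The number called without 1 library lay between 4 (replicate 1 of daf-16 on hns: 3 higher, 1 lower) and 13 (replicate 2 of daf-16 on BW25113: 10 higher, 3 lower). It was 5 without replicate 2 of daf-16 on hns or either N2 library on BW25113, 6 without replicate 1 of daf-16 on BW25113 or of N2 on hns, and 7 without replicate 2 of N2 on hns. After median-of-ratios scaling 4 rose and 3 fell.

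F35E12.5, now named irg-5, is known as an infection response gene and belongs to the class II list as well. It measured 116, 90.5, 255 and 296 FPKM in daf-16 libraries, against 35.3, 44.4, 105 and 107 FPKM in N2 libraries. Levels were higher on hns food in both genotypes, and within each food the mutant libraries were above those of N2. The log2 change was 1.36 ± 0.10 (SE; limma, adjusted p = 0.0014), with 1.35 on BW25113 (adjusted p = 0.0342) and 1.37 on hns (adjusted p = 0.0397). These p-values per food use the spread of all 8 libraries, and from only the 4 BW25113 libraries 0 genes were called higher on that food. Nearby on chromosome V, F35E12.2 averaged 6.24 ± 1.01 FPKM in daf-16 worms and 1.72 ± 0.353 FPKM in N2 worms (SD, n = 4 each), a log2 change of 1.41 ± 0.11 (SE, adjusted p = 0.00225). Close to both, F35E12.10, named here after its values were seen, rose by 0.54 ± 0.07 (adjusted p = 0.015).

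T24B8.5, now sysm-1, is widely used as a reporter of the p38 MAP kinase immune pathway. Its levels were 624, 270, 1432 and 979 FPKM in daf-16 libraries, against 165, 180, 465 and 402 FPKM in N2 libraries. Within each food both mutant libraries exceeded both N2 libraries, although the genotypes overlapped across foods. The log2 change was 1.35 ± 0.24 (SE; limma, adjusted p = 0.0485), and the call held only without replicate 2 of daf-16 on BW25113, reaching an adjusted p of 0.148 among the other 7 omissions. F08G5.6 (irg-4) had a log2 change of 0.99 ± 0.17 (adjusted p = 0.0467), with the same 7 omissions ending its call (adjusted p up to 0.143).

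The caenacin gene cnc-2, of a family of antimicrobial peptides made in the epidermis, measured 162, 103, 179 and 206.6 FPKM in daf-16 libraries, against 56.0, 57.6, 63.7 and 90.6 FPKM in N2 libraries. The genotypes did not overlap. Its log2 change of 1.25 ± 0.15 (SE; limma, adjusted p = 0.0126) reached an adjusted p of 0.0509 without replicate 1 of daf-16 on hns. The gene fip-6, named for induction by fungi, had 53.8, 34.9, 100 and 72.3 FPKM in daf-16 libraries. In N2 libraries fip-6 had 20.8, 20.1, 21.5 and 29.6 FPKM, a log2 change of 1.38 ± 0.20 (limma, adjusted p = 0.0209). That call held only without replicate 2 of daf-16 on BW25113 (adjusted p up to 0.0737 otherwise).

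The lysozymes did not move as 1 family. Beside the fall of lys-7, the adjoining genes lys-1 and lys-2 rose. The lys-1 levels were 515, 515, 534 and 542 FPKM in daf-16 libraries, against 388, 396, 351 and 386 FPKM in N2 libraries. This difference was small but regular, at 0.47 ± 0.05 on the log2 scale (SE; limma, adjusted p = 0.00756), and it passed under all 8 omissions. For lys-2 the means were 192 FPKM in daf-16 worms and 142 FPKM in N2 worms (0.43 ± 0.08, adjusted p = 0.0465). The lys-2 call held under 1 of 8 omissions.

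Class II genes, known to be higher when DAF-16 is inactive, showed the opposite lean to class I. Of 22 tested, 3 rose (F35E12.5, dod-19 and clec-186) and 0 fell (13.6% called, against 1.03% of all genes). The median was 0.12, and 15 of 22 were above 0. Of the 3 that rose, F35E12.5 and dod-19 are counted among the infection-response genes as well. The replicate block called 6 higher and 1 lower, and the block within food 4 higher and 0 lower. Calls numbered 1 without replicate 1 of daf-16 on hns, replicate 1 of N2 on BW25113 or replicate 1 of N2 on hns, and 2 without any of the others except replicate 2 of daf-16 on BW25113, which left 3. The summed FPKM of the list ran from 8208 to 8578 in daf-16 libraries and from 7453 to 8091 in N2 libraries, without overlap. The gene dod-19 averaged 122 FPKM in daf-16 worms and 81.1 FPKM in N2 worms (0.56 ± 0.10, adjusted p = 0.0498), and the lectin gene clec-186 averaged 86.8 FPKM in daf-16 worms and 68.6 FPKM in N2 worms (0.33 ± 0.04, adjusted p = 0.0144). The dod-19 call held under 1 of 8 omissions and the clec-186 call under 5.

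Related class II readouts missed the threshold without the block. The gene dod-22 measured 6.76, 4.27, 9.66 and 9.93 FPKM in daf-16 libraries, against 3.86, 2.11, 6.85 and 3.75 FPKM in N2 libraries. Its log2 change of 0.77 ± 0.21 had an adjusted p of 0.163, of 0.0367 with the block and of 0.0638 with the block within food. For dod-17 the means were 14.6 FPKM in daf-16 worms and 10.5 FPKM in N2 worms (0.44 ± 0.15, adjusted p = 0.235, 0.0313 with the block and 0.0694 with the block within food). For dod-24 they were 71.4 FPKM in daf-16 worms and 64.7 FPKM in N2 worms (0.13 ± 0.10, adjusted p = 0.623).

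Metal handling genes differed in direction. Of 22 tested, hrg-3 and cdr-4 rose and mtl-1 fell (13.6% called, against 1.03% of all genes). The gene hrg-3 encodes a secreted heme carrier that moves heme from the intestine to other tissues. It measured 822, 794, 48.1 and 40.9 FPKM in daf-16 libraries, against 501, 486, 29.8 and 29.2 FPKM in N2 libraries. Food set the level, and within each food the mutant stood above N2, by 0.71 on BW25113 and 0.57 on hns on the log2 scale. The log2 change was 0.64 ± 0.06 (SE; limma, adjusted p = 0.00395). For the cadmium-responsive gene cdr-4, means were 38.7 ± 7.15 FPKM in daf-16 worms and 24.8 ± 1.6 FPKM in N2 worms (SD, n = 4 each), a log2 change of 0.61 ± 0.10 (adjusted p = 0.032) that held under 1 of 8 omissions.

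C-type lectin-like genes are a large family of secreted proteins, many of which respond to bacteria. Among 146 tested, 4 rose and 4 fell (5.48% called, against 1.03% of all genes), and the median was −0.01. The replicate block called 9 higher and 4 lower, and the block within food 3 higher and 2 lower. The smallest adjusted p in the family was that of clec-222, with 27.1, 24.3, 28.4 and 29.5 FPKM in daf-16 libraries, against 51.9, 55.7, 72.4 and 65.1 FPKM in N2 libraries. Its log2 change was −1.13 ± 0.07 (SE; limma, adjusted p = 0.000686), a call that held under all 8 omissions. The adjoining clec-223 had a log2 change of −0.67 ± 0.12 (adjusted p = 0.0483), a call that every one of the 8 omissions ended (adjusted p up to 0.161).

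On the other side, clec-86 measured 21.5, 15.4, 47.8 and 29.6 FPKM in daf-16 libraries, against 7.79, 6.21, 15.6 and 12.11 FPKM in N2 libraries, a log2 change of 1.33 ± 0.17 (SE; limma, adjusted p = 0.0144). Within a food the genotypes did not overlap. The call was lost without replicate 1 of daf-16 on BW25113 or replicate 2 of N2 on BW25113 (adjusted p up to 0.0543). The lectin genes clec-41 and clec-81 rose by 0.83 ± 0.12 and 0.56 ± 0.09, and clec-197 and clec-190 fell by 0.80 ± 0.10 and 0.35 ± 0.06. Of these, clec-197 held under 7 of 8 omissions, clec-41 under 4, clec-190 under 1 and clec-81 under 0. The block within food ended the calls of clec-223, clec-190 and clec-81 (adjusted p = 0.057, 0.0621 and 0.0556).

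Transthyretin-like genes, a nematode family of mostly secreted proteins, were called in 5 of 52 cases (9.62%, against 1.03% of all genes). Of these, ttr-34, ttr-14, ttr-3 and ttr-17 rose and ttr-5 fell, and the replicate block called 10 higher and 1 lower, and the block within food 5 and 1. The family's summed FPKM ran from 13870 to 16160 in daf-16 libraries and from 12450 to 12890 in N2 libraries. The log2 changes were 0.95 ± 0.15 for ttr-34, 0.74 ± 0.12 for ttr-14, 0.59 ± 0.08 for ttr-3, 0.35 ± 0.05 for ttr-17 and −0.40 ± 0.05 for ttr-5 (SE; limma, adjusted p from 0.016 to 0.0309). Without replicate 1 or 2 of N2 on BW25113, 0 of the family were called, and 1 was called without replicate 1 of daf-16 on hns or replicate 1 of N2 on hns. With replicate 2 of daf-16 on hns or replicate 2 of N2 on hns left out, 3 were called.

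Of 132 numbered collagen genes tested, most of which encode cuticle proteins, col-150 rose and col-135 fell (1.52% called), near the share over all genes. A change above 0 was found in 93 of the 132, with a median of 0.16 (0.26 on BW25113 and 0.06 on hns). The genotypes did not overlap in 11 of the 132 genes higher and 1 gene lower in daf-16, beside 4.03% higher and 2.14% lower of all genes. The col-150 means were 14.5 FPKM in daf-16 worms and 6.26 FPKM in N2 worms, with a log2 change of 1.11 ± 0.17 (SE; limma, adjusted p = 0.0255). For col-135 they were 17.9 FPKM in daf-16 worms and 34.8 FPKM in N2 worms, with a log2 change of −0.95 ± 0.15 (adjusted p = 0.0266). Both calls held under 2 of 8 omissions. With the replicate block the family had 6 higher and 8 lower, beside 2.78% called of all genes, and with the block within food 2 higher and 7 lower.

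The largest increase was that of comt-4, of the catechol-O-methyltransferase family. It measured 22.9, 9.87, 36.1 and 9.75 FPKM in daf-16 libraries, against 0.640, 0.236, 1.71 and 0.653 FPKM in N2 libraries. Replicate 1 exceeded replicate 2 in every group, and the lowest daf-16 library was still several times the highest N2 library. The mean in daf-16 was 24.2-fold the mean in N2, and the log2 change was 3.37 ± 0.41 (SE; limma, adjusted p = 0.0125). Another large increase was that of cex-1, which encodes calexcitin, a calcium-binding protein. Its levels were 49.8, 38.8, 61.8 and 48.3 FPKM in daf-16 libraries, against 16.3, 14.8, 18.6 and 18.96 FPKM in N2 libraries, with a log2 change of 1.47 ± 0.10 (adjusted p = 0.00137).

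Other large changes fell on genes for which no role is given here. F54F7.9 measured 10.4, 7.17, 11.89 and 9.70 FPKM in daf-16 libraries, against 2.12, 2.48, 2.06 and 1.58 FPKM in N2 libraries (log2 change 1.81 ± 0.17, adjusted p = 0.00421). K11H12.6 averaged 11.43 FPKM in daf-16 worms and 2.12 FPKM in N2 worms (1.94 ± 0.23, adjusted p = 0.0119). F14D7.10 averaged 12.24 FPKM in daf-16 worms and 3.35 FPKM in N2 worms (1.67 ± 0.26, adjusted p = 0.0279). The 3 of them rose, and F14D7.10 held under 3 of 8 omissions where the others held under all 8.

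Among the genes that fell, Y68A4A.13 measured 3.87, 5.05, 10.7 and 12.7 FPKM in daf-16 libraries, against 25.04, 36.4, 39.3 and 34.4 FPKM in N2 libraries (−2.05 ± 0.21, adjusted p = 0.00659). F21C10.11 averaged 77.2 FPKM in daf-16 worms and 272 FPKM in N2 worms (−1.81 ± 0.20, adjusted p = 0.0106), and its exons overlap those of F21C10.13. F15E6.3 averaged 21.3 FPKM in daf-16 worms and 61.2 FPKM in N2 worms (−1.45 ± 0.15, adjusted p = 0.00583). All 3 passed under every omission. Smaller decreases with a known role were those of tbh-1, the enzyme that makes octopamine (−0.39 ± 0.06, adjusted p = 0.0298), the cytochrome P450 gene cyp-25A1 (−0.63 ± 0.08, adjusted p = 0.0126) and the nuclear receptor gene nhr-105 (−0.44 ± 0.07, adjusted p = 0.0279). These held under 1, 5 and 0 of 8 omissions, and the block within food ended the nhr-105 call (adjusted p = 0.0501).

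Several short noncoding RNAs were among the largest increases. The small nucleolar RNA Y53F4B.48 measured 85.8, 111, 214 and 95.2 FPKM in daf-16 libraries, against 13.3, 23.2, 25.3 and 36.7 FPKM in N2 libraries (log2 change 2.298 ± 0.272, adjusted p = 0.0119). The noncoding RNAs ZC155.8 (srpr-2.1), mrpr-1 and R144.15 (srpr-2.2), of which the srpr genes carry numbered names of 1 family and may share reads, had log2 changes of 1.77 ± 0.21, 1.73 ± 0.26 and 1.63 ± 0.21, and the small nucleolar RNA F17C11.15 one of 1.53 ± 0.18. Of 43 small nucleolar RNA genes tested, 2 rose and 1 fell (6.98%, against 1.03% of all genes). Among 116 genes annotated only as ncRNA 4 rose and 0 fell (3.45%). Of 74 lincRNA genes 1 rose, and of 50 antisense RNA genes 0 were called. The one that fell, C02F5.15, had a log2 change of −1.08 ± 0.16 (adjusted p = 0.0213) and overlaps fbxl-1. The mrpr-1 call held under 2 of 8 omissions (adjusted p up to 0.0951), the C02F5.15 call under 4 (up to 0.0684) and the R144.15 call under 7 (up to 0.0547).

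Beside these changes stood the higher share of ribosomal RNA, almost wholly that of rrn-2.1, in daf-16 libraries. Among the genes tested, small nucleolar, small nuclear and other ncRNA genes together held 2.62% to 3.15% of the FPKM sum in daf-16 libraries. In N2 libraries they held 2.75% to 3.45%, and the ranges overlapped in part. This sum leaves out genes at 0 in any library, whereas the ribosomal RNA share was taken over all rows. The ribosomal RNA gene rrn-2.1 had a log2 change of 1.402 ± 0.341 (adjusted p = 0.114, 0.0438 with the replicate block and 0.0813 with the block within food), and the small nuclear RNA sup-6 one of 1.92 ± 0.37 (adjusted p = 0.0621, 0.0103 with the block and 0.0184 with the block within food). The libraries were made with an mRNA kit, and the part of library composition in the noncoding changes was not tested. Fitted over protein-coding genes only, an alternative chosen after seeing the data, 177 genes were called, 116 higher and 61 lower.

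**Figure D3:**
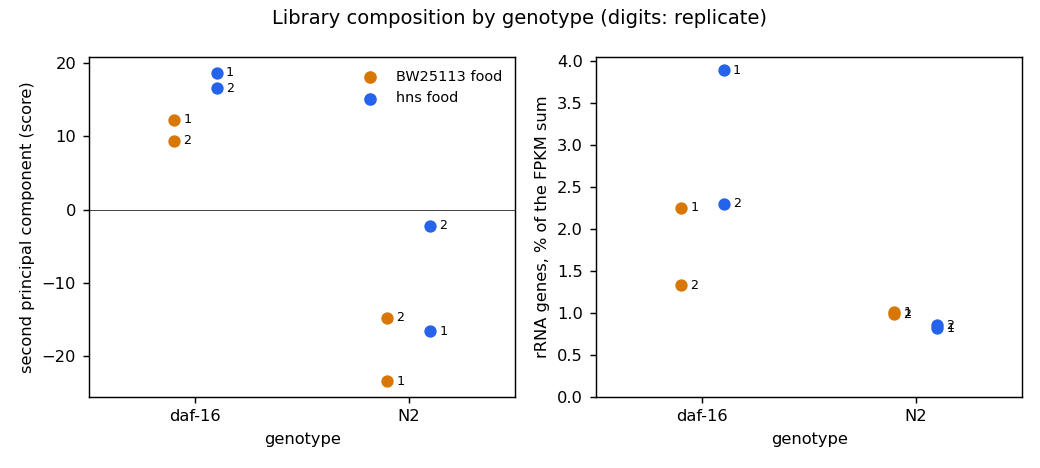
Score on the second principal component (left) and percent of the FPKM sum held by ribosomal RNA genes (right) for each library, daf-16 left of N2, coloured by food and numbered by replicate. In both panels all 4 daf-16 libraries lie above all 4 N2 libraries, with ribosomal RNA at 1.33% to 3.89% in daf-16 and 0.815% to 1.01% in N2. The ribosomal RNA share is almost wholly that of rrn-2.1.

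The genotype effect was also measured on each food. The changes on the 2 foods share no library, but their p-values use 1 spread estimated from all 8 libraries. On BW25113 food 24 genes (0.148%) passed, 14 higher (0.0862%) and 10 lower (0.0615%), and on hns food 15 genes (0.0923%) passed, 10 higher (0.0615%) and 5 lower (0.0308%). The counts became 70 and 63 with the replicate block. From only the 4 libraries of a food, 1 gene was called on BW25113 (0 higher, 1 lower) and 5 on hns (3 higher, 2 lower). Without single libraries the counts ran from 1 to 15 on BW25113 and from 1 to 12 on hns. On BW25113 just 1 gene was called without replicate 1 of daf-16 on that food or without either daf-16 library on hns. Genes called on both foods and in the pooled effect were daf-16, clec-222, F35E12.5, F35E12.2, cex-1, K11D12.13, Y54G2A.36, scpl-1 and K03E5.2, of which the last 4 are named after their values were seen. Across the 16248 genes the 2 effects had a Pearson r of 0.439 and a Spearman rho of 0.349, a description over genes that are not independent replicates.

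Ranking genes on 1 food and reading them on the other kept most directions. The ranking used p-values from limma fits to only the 4 libraries of the ranking food. Of the 100 genes with the smallest p on BW25113, 91 had the same direction on hns food, and in 73 the hns libraries of the genotypes did not overlap in that direction. Over all genes these shares were 61.4% and 24.5%. Of the 100 genes with the smallest p on hns, 96 had the same direction on BW25113 and 84 did not overlap, against 61.4% and 27.1% of all genes. The median change of the first set was 1.03 on BW25113 and 0.52 in the same direction on hns. For the second it was 0.987 on hns and 0.683 on BW25113.

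The difference between foods in the genotype effect, tested as an interaction in limma, was past the threshold for 0 of 16248 genes (0%), and 666 had an unadjusted p under 0.05. Without replicate 1 of daf-16 on hns, or without replicate 2 of N2 on BW25113, 1 gene passed. The count was 31 with no filter on low values and 14 with at least 1 FPKM in at least 2 libraries. Of the 168 pooled calls 7 had an unadjusted interaction p under 0.05. Among them, Y68A4A.13 changed by −2.52 on BW25113 and −1.58 on hns (adjusted p = 0.0597 on hns), and pud-3 by −1.59 on BW25113 and −0.97 on hns (adjusted p = 0.148 on hns). With 2 libraries a group, the absence of calls does not show that the effects were alike.

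**Figure D4:**
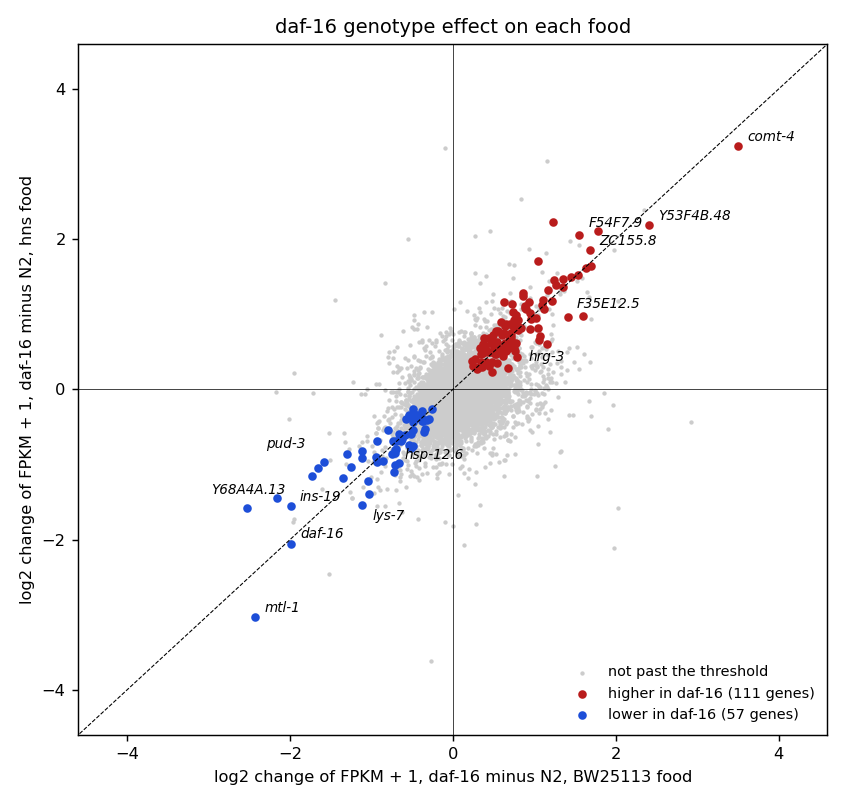
Each point is a gene, with its log2 change of FPKM + 1 (daf-16 minus N2) on BW25113 food on the horizontal axis and on hns food on the vertical axis; red and blue points are the 111 genes higher and the 57 genes lower in the pooled effect, and 1 gene lies outside the axes. The dashed line marks equal change on both foods, and the pooled test favours genes near it.

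Several broad gene groups held no called gene; groups as such were not tested. Of the 43 gene lists described, 0 members were called in cytosolic ribosomal proteins (75 tested), proteasome (32), mitochondrial respiratory chain (40), autophagy and lysosome (49), large chaperones (28), glutathione transferases (43), UDP-glucuronosyltransferases (64), lipases and lipid breakdown (41) and neuropeptide genes (107). Medians of these lists lay between −0.11 and 0.05. Some leaned 1 way all the same. A change below 0 was found in 28 of 32 proteasome genes, 23 of 28 large chaperone genes and 73 of 107 neuropeptide genes, and one above 0 in 33 of 40 respiratory chain genes. With the replicate block 4 neuropeptide genes passed (1 higher, 3 lower), as did lipl-2, nuc-1 and ugt-55 as lower. Of 30 glycolysis, gluconeogenesis and glyoxylate genes, 0 were called and 26 had a change below 0 (median −0.07). With the block, pck-1 and sodh-1 passed as lower. Of 219 nuclear hormone receptor genes 1 was called (0.457%), and of 140 F-box A genes 1 (0.714%), counts too small to set against the share of all genes. The replicate block called 3 F-box A genes.

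Marker lists of cell types and stages, of 6 to 34 genes tested each, had 1 call in all, and 7 with the replicate block. Their levels in whole worms cannot separate fewer cells from less RNA per cell. Over all genes 1.03% were called, and 2.78% with the block. The few marker calls are therefore given as single genes and not as results about tissues. The block called mec-7, tbh-1 and tdc-1 (neuron), cpg-1 and cpg-3 (oocyte) and col-10 (hypodermis) lower and pat-10 (muscle) higher. The gene called without it was tbh-1, in the neuron list, where 31 of 34 genes had a change below 0 with a median of −0.22. The summed FPKM of the neuron list ran from 1051 to 1087 in daf-16 libraries and from 1153 to 1274 in N2 libraries. That of the muscle list ran from 9784 to 11860 in daf-16 libraries and from 8874 to 9662 in N2 libraries, with 21 of 28 genes above 0 and a median of 0.09. All 27 major sperm protein genes tested were above 0, with a median of 0.41 (0.66 on BW25113 and 0.14 on hns), but their sums overlapped, at 97.6 to 276 FPKM in daf-16 libraries and 80.1 to 163 FPKM in N2 libraries.

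Hypodermis and adult cuticle markers had a median of 0.28, made up of 0.66 on BW25113 and −0.17 on hns, so their direction differed between foods, and that difference was not tested for the list. Oocyte, eggshell and yolk receptor markers had 19 of 21 genes below 0 with a median of −0.14. Embryo markers had 23 of 27 above 0 with a median of 0.155 (0.30 on BW25113 and 0.02 on hns). Sperm markers had 18 of 24 above 0, vitellogenins 5 of 6 and germline markers 15 of 33. Below 0 were 5 of 7 male markers and 7 of 11 dauer and arrest markers. Intestine markers had 9 of 17 above 0. The part of these markers in the calls named above was not tested.

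**Figure D5:**
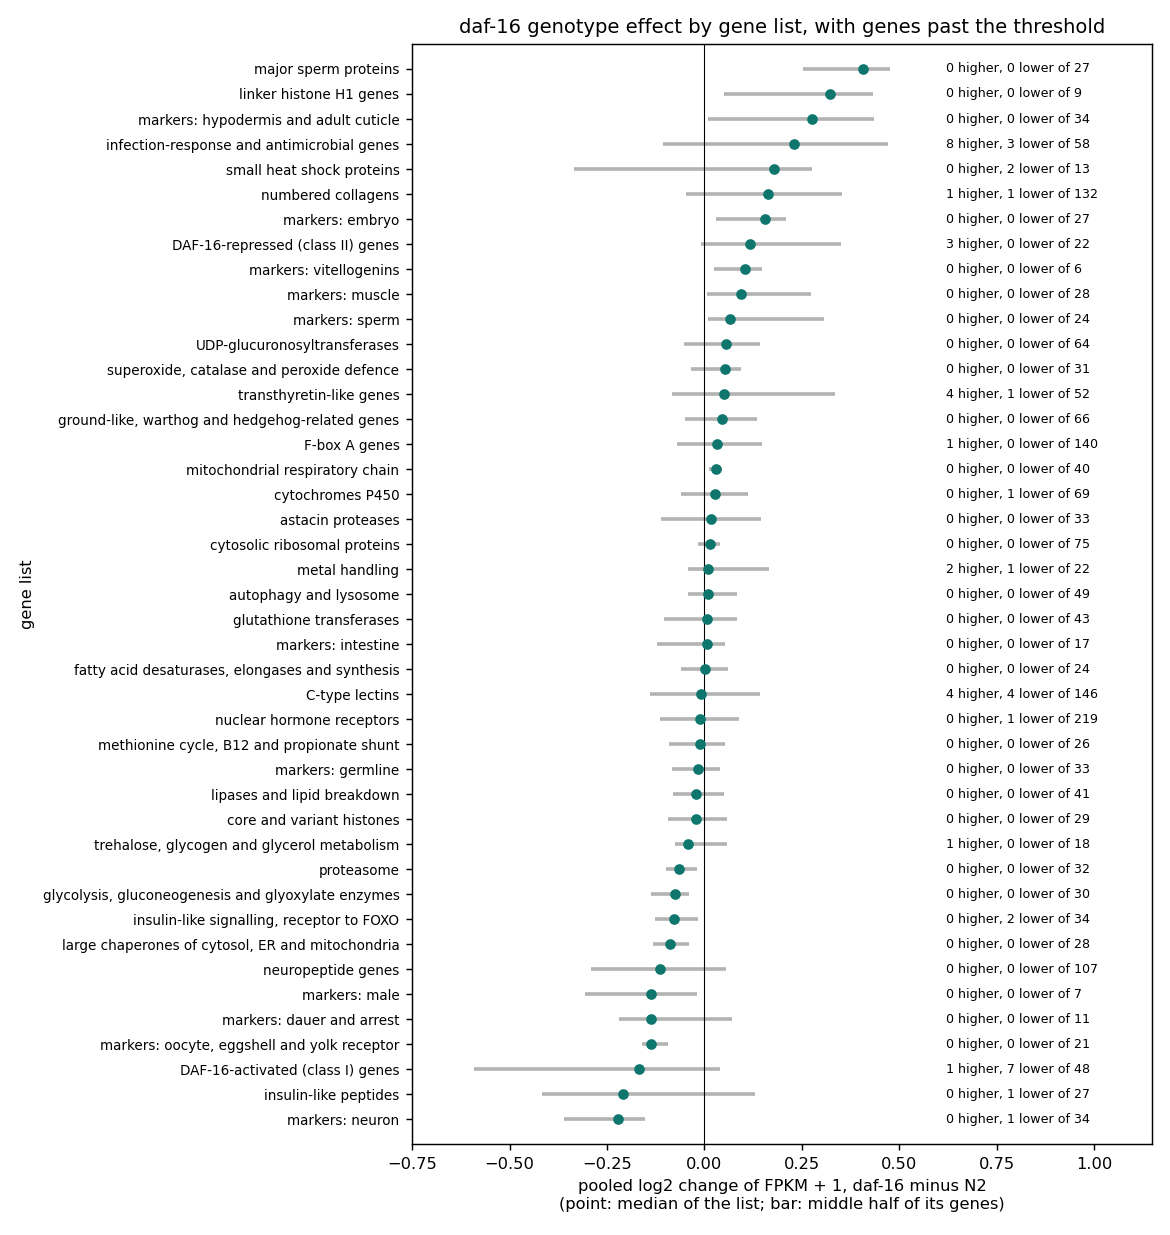
Median (point) and interquartile range (bar) of the pooled log2 change of FPKM + 1, daf-16 minus N2, for each gene list, with the number of members called higher and lower of those tested. Infection-response genes (8 higher, 3 lower of 58) hold the most calls, followed by class I genes (1 higher, 7 lower of 48) and C-type lectins (4 higher, 4 lower of 146).

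The called genes were spread over all chromosomes, with the highest share on V, where 40 rose and 21 fell of 3295 tested (1.85%). The lowest share was on II (0.528%), with 1.22% on IV, 1.03% on X, 0.743% on III and 0.687% on I. Chromosome V also held most adjoining pairs with calls in 1 direction, such as pud-3 with pud-4, lys-1 with lys-2, clec-222 with clec-223 and F14D7.7, named after its values were seen, with F14D7.10. The pair F21C10.9 and F21C10.10 moved in opposite directions, by 0.54 ± 0.08 and −0.40 ± 0.06 (limma, adjusted p = 0.0191 and 0.0315); both are named after their values were seen, and their exons overlap. Where exons of a named gene overlap another gene's in the reference, as for hrg-3, sip-1, spp-1, tbh-1, gpdh-1, clec-86, ttr-14, comt-4, F35E12.2, Y53F4B.48, R144.15, gpd-2, ctl-2, sod-3 and daf-16, reads of the overlap could belong to either gene, since the sources used here do not give the handling of strand.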

How the data were processed

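The authors deposited FPKM values in 1 table for 8 libraries. The submitters' processing notes name ce10 as the genome build, Cufflinks 2.2.1 and TopHat2 2.0.11. Annotation and strand handling: not given in the sources used here. Libraries were prepared from total RNA with the SENSE mRNA kit of Lexogen, per the labels. Names and gene classes came from the WBcel235 reference (15989 of 16248 matched, 98.4%), so no coordinates are given. Values were taken as log2(FPKM + 1) and fitted on genotype and food with limma-trend (limma 3.58.1 in R 4.3.3) (5 residual and 3.15 prior degrees of freedom). Effects per food and the interaction came from a model with 4 group means (4 and 3.23). The labels do not say that replicates were separate cultures, so p-values measure the spread between these libraries, which may be technical.

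Same-numbered libraries deviated together in all group pairs (r from 0.208 to 0.402 over 16248 genes). This pairing comes from the data, not the labels. The main fit, with food as its only covariate, leaves the pairing out. The replicate number enters only in the fits named as having a block. Named genes were daf-16, in each direction the 12 largest called changes (no overlap, at least 5 FPKM in the higher genotype), up to 4 called members per list and direction, and 25 readouts given whether or not they passed. The members, lists and readouts were chosen with earlier results of these data known. Model fits were tested on simulated data.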

Additional observations from a re-analysis of the deposited data

Results flagged for a closer look

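Among the named genes, 150 sets of 4 libraries of a genotype were examined for 1 library standing apart from the other 3, by the gap to the nearest library as a share of the range (limit 0.829). Chance flags about 1 in 20 such sets, and 3 passed: the daf-16 libraries of ttr-5 (0.8291), the N2 libraries of fip-6 (0.8305) and the daf-16 libraries of mrpr-1 (0.8642). In ttr-5 replicate 2 on BW25113 was low at 84.9 FPKM. In fip-6 replicate 2 of N2 on hns was high at 29.6 FPKM, and in mrpr-1 replicate 1 of daf-16 on hns was high at 69.99 FPKM.

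Genes listed at 0 in all 4 N2 libraries stayed out of the comparison although they were above 0 in all 4 daf-16 libraries. At 1 FPKM or more in each daf-16 library were C50C3.13 (up to 27.5 FPKM), K02C4.8 (11.2 to 24.7 FPKM) and T19A5.11 (1.63 to 3.5 FPKM). The first and second are small nucleolar RNAs and the third a noncoding RNA. No fold is given, since an exact 0 can be a failed estimate, and the part of library composition in these values was not tested.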

How the results depend on the processing

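With 168 genes called in the pooled effect, no filter on low values gave 84, the replicate block 451 and leave-one-out fits 60 to 175; the block ended no call named in the text. With the replicate block within food 138 of the 168 calls were shared, and the named calls it ended are given beside each gene except F21C10.10 (adjusted p = 0.0524) and C44B12.3 of the heat map (0.0501). Other pooled counts ran from 135 (model with 4 group means) to 239 (replicate block within food), with 195 after quantile normalization and 152 after median-of-ratios scaling. On BW25113 food (24 called) the counts were 38 with at least 1 FPKM in at least 2 libraries, 10 after quantile normalization, 70 with the replicate block, 1 without a mean-variance trend, 1 from only the 4 libraries on that food and 1 to 15 in leave-one-out fits. On hns food (15 called) they were 31 with no filter, 34 with at least 1 FPKM in at least 2 libraries, 63 with the replicate block, 1 without a trend, 5 from only those 4 libraries and 1 to 12 in leave-one-out fits. Chosen after seeing the data, a fit over protein-coding genes gave 23 there, as did leaving out transcripts shorter than 300 nt. The interaction (0 called) gave 31 with no filter, 14 with at least 1 FPKM in at least 2 libraries and 0 to 1 in leave-one-out fits. The cause of these shifts was not tested. The named genes called kept their direction under all alternatives, which their being called with all 8 libraries already favours. Of their values, 708 of 783 stayed past the threshold in other alternatives and 265 of 456 in leave-one-out fits. Directions reversed only among genes not called: in leave-one-out fits dod-3 ran from −0.4723 to 0.0537 (without replicate 2 of daf-16 on BW25113), gpd-2 from −0.1235 to 0.01631 (without replicate 1 of daf-16 on BW25113), ctl-1 from −0.006065 (without replicate 1 of daf-16 on hns) to 0.1474, and dao-3 from −0.03571 (without that library) to 0.06308, with −0.01313 without replicate 1 of N2 on hns. The daf-16 call held in all 22 alternatives. The unknown depth limits what low FPKM can show.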

Other observations

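Of the genes outside the fixed lists, let-2, cle-1 and mig-6 are given as single genes chosen after their values were seen. The type IV collagen gene let-2 averaged 110 FPKM in daf-16 worms and 83.9 FPKM in N2 worms (log2 change 0.39 ± 0.07, SE; limma, adjusted p = 0.0499). The type XVIII collagen gene cle-1 averaged 37.2 FPKM in daf-16 worms and 25.1 FPKM in N2 worms (0.55 ± 0.08, adjusted p = 0.0186), and the papilin gene mig-6 averaged 43.7 FPKM in daf-16 worms and 33.5 FPKM in N2 worms (0.38 ± 0.06, adjusted p = 0.0346). All mutant libraries were above all N2 libraries for each of these genes, and the calls held under 2, 3 and 1 of 8 omissions. The block within food ended the calls of let-2 and mig-6 (adjusted p = 0.0599 and 0.0511). In the reference, exons of each overlap those of another gene.

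After daf-16 itself, the change with the smallest adjusted p was that of scpl-1, a gene of the SCP-like phosphatase family, at 132, 132, 123 and 128 FPKM in daf-16 libraries, against 75.3, 76.0, 73.7 and 70.8 FPKM in N2 libraries. Its log2 change was 0.79 ± 0.04 (limma, adjusted p = 0.000122), past the threshold under all 8 omissions. The lipid regulator gene mxl-3, which encodes a bHLH factor acting on lipase genes, averaged 39.5 FPKM in daf-16 worms and 53.04 FPKM in N2 worms (−0.43 ± 0.07, adjusted p = 0.0279; held under 2 of 8 omissions).

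At 0 FPKM in all 4 daf-16 libraries and above 0 in all 4 N2 libraries were 6 genes, and the reverse held for 11. The most abundant of the 6 was the noncoding RNA K06A4.15, at 13 to 27.4 FPKM in N2 libraries.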
